A study of Mus musculus with 4 samples.

Results

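The endoderm of mouse blastocysts held in diapause was compared between a later and an earlier stage, labelled EDG9.5 and EDG7.5. Endoderm cells, called N cells here, were picked from marker counts among cells with at least 1000 molecule counts (UMIs). A cell was an N cell when the genes Sparc, Col4a1, Lamb1, Srgn, Gata4, Sox17, Cubn and Amn together had at least 3 UMIs and at least 60% of all UMIs on 3 marker sets. The other sets were an epiblast set (Tdgf1, Sox2, Nanog, Fgf4, Utf1, Pou3f1, Slc7a3), giving E cells, and a trophoblast set (Gata2, Gata3, Tspan8, Dppa1, Rhox6, Rhox9, Cdx2, Hand1, Ascl2, Elf5), giving T cells. The rule found 905 N cells in EDG9.5 and 588 in EDG7.5, or 1493 of the 14529 cells in the 4 libraries.

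The embryos were wild-type whole embryos of the strain B6C3F1/J, captured as single cells on the BD Rhapsody microwell system after dissociation with TrypLE. EDG9.5 and EDG7.5 are 1 library each, made from pools of 200 to 250 blastocysts flushed from the uterus. A Reactivated library, EDG9.5 followed by 30 h of E2, and an E5.5 library of 50 embryos give context. With 1 library per stage no difference has a replicate check, and stage cannot be told apart from library. All intervals are exact 95% intervals that cover counting error only.

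In the blastocyst the primitive endoderm is the layer of the inner cell mass that faces the cavity. It gives rise to the visceral endoderm, which takes up and secretes nutrients around the embryo, and to the parietal endoderm, which lays down a thick basement membrane. In diapause the blastocyst stays in the uterus without implanting and its cells divide little, until estrogen lets development go on.

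EDG9.5 held 10994918 UMIs over 2566 cells and EDG7.5 held 9620232 over 1726 cells. N cells had a median of 3584 UMIs in EDG9.5 and 5128 in EDG7.5, so the later cells were the shallower ones. Of all E, N and T cells, N cells made up 36.6% (34.7 to 38.5) in EDG9.5 and 34.7% (32.5 to 37.1) in EDG7.5. When cells at 10% or more mitochondrial UMIs were left out, the share was 37.7% in EDG9.5 and 29.7% in EDG7.5. That limit removes cells of the lineages unequally. In EDG7.5 the median mitochondrial share was 9.76% in N cells, 5.39% in E cells and 10.1% in T cells. The libraries shared 8 cell barcodes, and 2 of these were N cells in both.

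The cells carried the markers that chose them, which is a description of the rule. The set had a median of 38 UMIs per N cell in EDG9.5 and 63 in EDG7.5, and a median of 98.2% and 97.7% of the UMIs on the 3 sets. Cells near the 60% limit were few: 1 N cell in EDG9.5 and 1 in EDG7.5 lay between 60 and 65%, and 0 and 3 cells lay just outside, between 55 and 60%. Levels below are CPM, UMIs of a gene scaled to a common total over the summed N cells of a library, a share of the RNA and not an amount per cell.

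Among the markers, Sparc, a collagen-binding matrix protein, had 4045 CPM in EDG9.5 and 4091 CPM in EDG7.5. Col4a1, a chain of basement membrane collagen, had 2211 CPM in EDG9.5 and 2562 CPM in EDG7.5. The transcription factors Gata4 and Sox17 had 832 and 635 CPM in EDG9.5, against 855 and 686 CPM in EDG7.5. These levels were close in the libraries. Srgn, a proteoglycan core protein, stood apart with 2066 CPM in EDG9.5 and 1540 CPM in EDG7.5, as did Cubn, an endocytic receptor of visceral endoderm, with 166 CPM in EDG9.5 and 78.3 CPM in EDG7.5. Cubn was found in a minority of N cells, 14.5% in EDG9.5 and 18.5% in EDG7.5, and after thinning in 6.74% and 3.74%. Lamb1 and Amn, also of the rule, were lower in EDG9.5, with 2073 and 208 CPM, against 2474 and 240 CPM in EDG7.5.

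Endoderm markers that the rule did not use were present in both libraries, all 12 of them. Their sum was 8302 CPM (8210 to 8395) in EDG9.5 and 9410 CPM (9305 to 9515) in EDG7.5. Gata6, a transcription factor of primitive endoderm, had 849.8 CPM in EDG9.5 and 873 CPM in EDG7.5, and Pdgfra, its receptor tyrosine kinase marker, had 511 and 580.1 CPM in the same order. The epiblast set summed to 281 CPM in EDG9.5 and 341 CPM in EDG7.5, and the trophoblast set to 71.0 and 59.6 CPM. Both of these sets are part of the rule, so their low sums follow from it. The 12 markers outside the rule summed to 537 CPM in EDG9.5 and 663 CPM in EDG7.5 in E cells. In T cells they summed to 2497 and 2303 CPM. By these 12 markers, higher in N cells, the label endoderm holds in both libraries.

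Lists of other cell types were low. Decidual stroma genes summed to 41.1 CPM in EDG9.5 and 66.8 CPM in EDG7.5, with Hand2 and Prl8a2 at 0 in both. Bmp8a was the highest of them, with 31.8 CPM in EDG9.5 and 37.5 CPM in EDG7.5. Immune genes summed to 10.1 CPM in EDG9.5 and 33.3 CPM in EDG7.5, and Ptprc, the pan-leukocyte gene, had 0 and 2 UMIs. Cd74 had 0 UMIs in EDG9.5 and 50 of the 110 immune UMIs in EDG7.5, with 49 of the 50 in 1 cell. Erythroid genes had 1 UMI in each library, and endothelium genes summed to 87.5 CPM in EDG9.5 and 73.2 CPM in EDG7.5, with Kdr at 0 in both. The endothelium genes Flt1, Esam and Pecam1 had 32.1, 26.8 and 21.5 CPM in EDG9.5, against 32.1, 17.8 and 20.9 CPM in EDG7.5. The uterine epithelium list summed to 672 CPM in EDG9.5 and 690.5 CPM in EDG7.5, nearly all of it Klf5, a factor that the blastocyst expresses too, while Wnt7a and Calca were at 0. Krt19 of this list had 44 UMIs in EDG9.5 and 6 in EDG7.5.

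The N cells of the libraries were close to each other over most genes. A gene was measured when both libraries together gave it 50 UMIs or more, which left 9501 genes without those of the rule. Their median log2 ratio of EDG9.5 over EDG7.5 was -0.04 after 10 CPM were added to both sides. Between the 5th and the 95th percentile the log2 ratio ran from -0.42 to 0.37. Past 2-fold lay 20 genes that were higher in EDG9.5 (0.211% of the genes measured) and 8 that were lower (0.0842%). Past 1.5-fold, a limit added after the values were seen, lay 114 higher (1.2%) and 122 lower (1.28%). A log2 ratio above 0 was found for 43.5% of genes and one below 0 for 56.5%.

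Genes of cell division were the clearest group. G2 and M phase genes make up the machinery that condenses, aligns and separates chromosomes, and all 27 measured members of 28 were lower in EDG9.5. Of all measured genes 56.5% were lower, 0.0842% past 2-fold and 1.28% past 1.5-fold. Of the 27 members, 3 lay past 2-fold and 19 past 1.5-fold, and their median log2 ratio was -0.69. The summed level was 1590 CPM (1550 to 1630) in EDG9.5 and 2773 CPM (2716 to 2830) in EDG7.5. In the Reactivated and E5.5 N cells it was 5009 and 4916 CPM.

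The promoters of the 3 members past 2-fold are shown because most promoters of the list in the table hold the same short motifs. Each window runs from 250 bases before to 50 after a start listed by RefSeq on GRCm38.p6, 5′ to 3′ on the gene's strand. Capitals mark TTTGAA, the core of the cell cycle homology region motif, and CCAAT, the core bound by NF-Y, wherever either lies on either strand. All 3 genes lie on the minus strand, Aurka at chr2:172370521-172370820, Ccnb2 at chr9:70421505-70421804 and Cenpf at chr1:189688037-189688336.
Aurka: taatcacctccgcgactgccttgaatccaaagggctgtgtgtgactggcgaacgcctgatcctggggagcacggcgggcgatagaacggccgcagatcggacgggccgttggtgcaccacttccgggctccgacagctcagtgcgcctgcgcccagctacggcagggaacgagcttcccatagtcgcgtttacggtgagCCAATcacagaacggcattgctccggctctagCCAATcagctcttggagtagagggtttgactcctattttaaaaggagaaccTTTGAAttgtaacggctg
Ccnb2: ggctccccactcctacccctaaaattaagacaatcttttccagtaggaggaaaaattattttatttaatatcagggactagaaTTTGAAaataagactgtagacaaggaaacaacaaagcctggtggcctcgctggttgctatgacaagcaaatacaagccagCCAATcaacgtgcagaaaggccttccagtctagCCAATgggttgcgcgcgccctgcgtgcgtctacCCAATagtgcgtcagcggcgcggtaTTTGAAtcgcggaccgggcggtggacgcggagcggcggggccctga
Cenpf: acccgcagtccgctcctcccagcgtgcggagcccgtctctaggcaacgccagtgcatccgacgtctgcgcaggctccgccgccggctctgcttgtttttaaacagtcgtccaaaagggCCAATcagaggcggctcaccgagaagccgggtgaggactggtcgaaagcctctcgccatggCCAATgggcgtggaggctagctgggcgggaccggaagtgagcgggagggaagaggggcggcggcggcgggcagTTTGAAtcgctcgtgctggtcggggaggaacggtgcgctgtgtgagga

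The Aurka window holds 1 match of TTTGAA and 2 of CCAAT, that of Ccnb2 2 and 3, and that of Cenpf 1 and 2. Of the 27 measured list members 24 have a window in the table, with 25 windows in all. TTTGAA was found in 19 of the 25 windows (76%), against 17.9% of all 32851 windows of the same length. CCAAT was found in 22 (88%), against 37.4% of all windows. Both motifs stood together in 19 windows (76%), against 6.95% of all windows. In the S phase list CCAAT was also common, in 13 of 20 windows (65%), TTTGAA was in 1, and both stood together in 1. In the printed windows the motifs do not overlap each other, and a match is a description of letters and not a bound site.

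Aurka, a kinase of the spindle poles, had 17.5 CPM in EDG9.5 and 46.9 CPM in EDG7.5, a ratio of 0.373 (0.275 to 0.501). Ccnb2, a mitotic cyclin, had 22.8 CPM in EDG9.5 and 56.9 CPM in EDG7.5, a ratio of 0.401 (0.307 to 0.520). Cenpf, a kinetochore protein, had 66.3 CPM in EDG9.5 and 143 CPM in EDG7.5, a ratio of 0.463 (0.396 to 0.541). These 3 genes were picked because they lay past 2-fold in the same counts, so their low intervals are no separate support. Their counts also lay in a minority of cells, with Cenpf in 9.72% of N cells in EDG9.5 and 17.3% in EDG7.5. The intervals do not cover such spread between cells. The list members with the highest levels were lower as well. Top2a, which untangles DNA, had 159 CPM in EDG9.5 and 262 CPM in EDG7.5. Cenpa, the histone variant of the centromere, had 143 CPM in EDG9.5 and 251 CPM in EDG7.5. Ccna2, the cyclin of S phase and G2, had 95.4 CPM in EDG9.5 and 188 CPM in EDG7.5. Birc5, part of the chromosomal passenger complex, had 93.8 CPM in EDG9.5 and 185 CPM in EDG7.5. Of all the members, Racgap1 had the smallest log2 difference, -0.40, with 41.9 CPM in EDG9.5 and 58.4 CPM in EDG7.5.

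**Figure D1:**
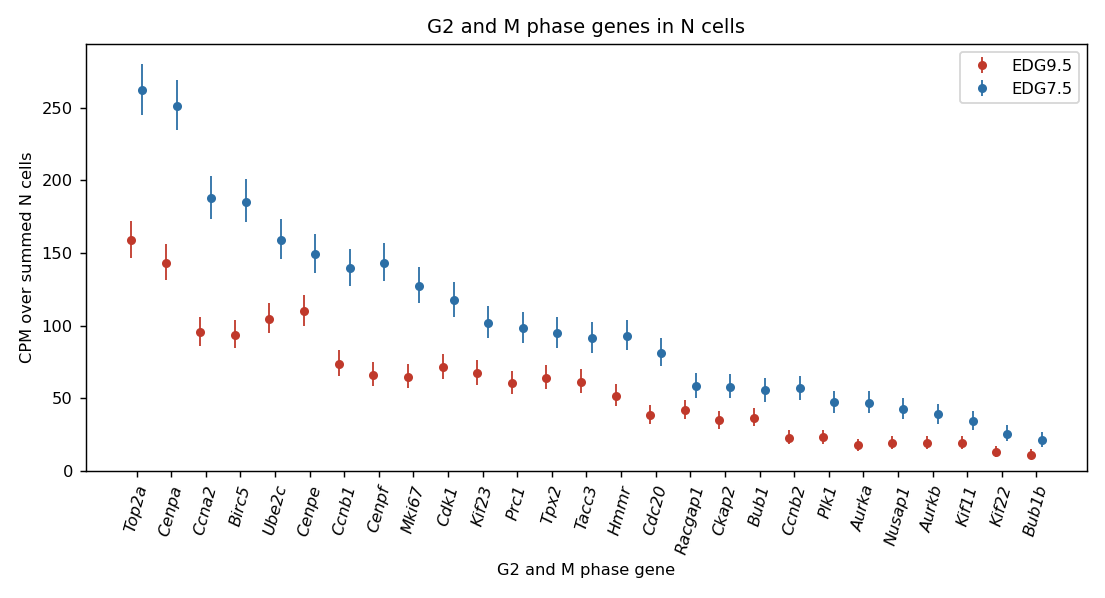
Level (CPM over summed N cells, from 0) of the 27 measured G2 and M phase genes, ordered by mean level, in EDG9.5 (red, left) and EDG7.5 (blue, right), with exact 95% Poisson intervals of 1 library each. The EDG9.5 value was the lower one for every gene, from Top2a at 159 against 262 CPM to Bub1b at 11.1 against 21.5 CPM.

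The lower level came with fewer cells rich in these transcripts. Each cell was thinned to 1000 UMIs, and a cell with at least 5 UMIs on the list was called rich, a limit chosen after the values were seen. In EDG9.5 61 of 905 N cells were rich, or 6.74% (5.19 to 8.57), against 86 of 588 in EDG7.5, or 14.6% (11.9 to 17.7). In cells that were not rich the list had 725 CPM in EDG9.5 and 675 CPM in EDG7.5. In rich cells it had 9276 CPM in EDG9.5 and 12216 CPM in EDG7.5. With the rich cells left out of both libraries the median log2 ratio of the list was 0.069, although these cells were picked by the list itself. With cells under 10% mitochondrial UMIs alone it was -0.97. Near the limit, 41 cells in EDG9.5 and 18 in EDG7.5 had 3 or 4 UMIs, and 12 and 11 cells had 5 or 6. Rich cells were also deeper than the others, with a median of 5136 UMIs in EDG9.5 and 6807 in EDG7.5, and the part of depth before thinning was not tested.

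**Figure D2:**
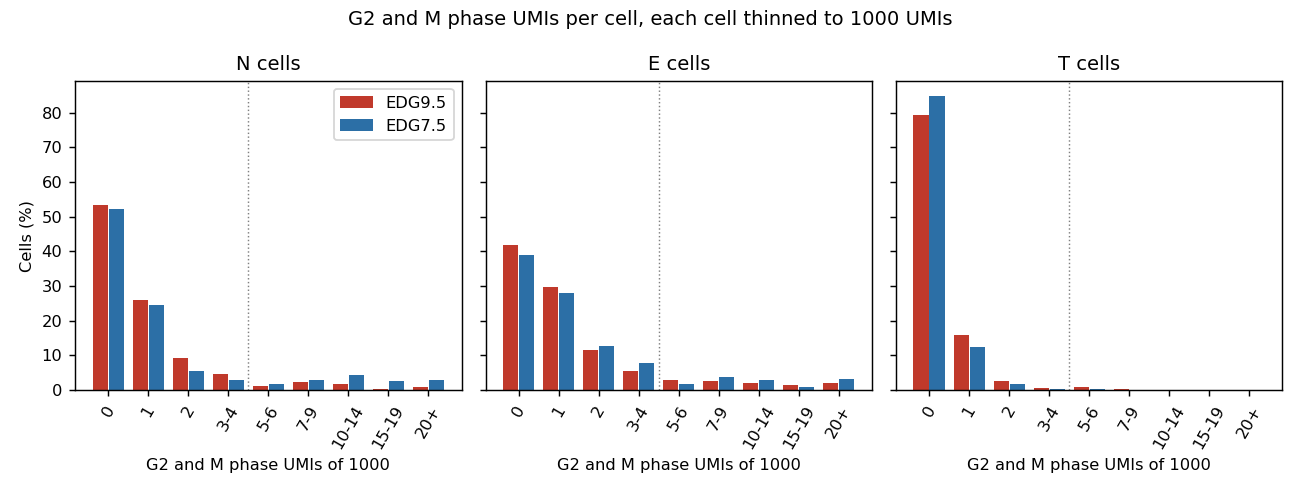
Share of cells (percent, from 0) by number of G2 and M phase UMIs among 1000 UMIs, for N, E and T cells of EDG9.5 (red, left bars) and EDG7.5 (blue, right bars), 1 library each; the dotted line marks the limit of 5. To the right of the line lie 6.74% of EDG9.5 and 14.6% of EDG7.5 N cells, and few T cells of either library.

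The other lineages of the same embryos gave other values. Among E cells 11.3% (8.88 to 14.1) were rich in EDG9.5 and 12.6% (9.82 to 15.9) in EDG7.5, and among T cells 1.23% (0.638 to 2.14) and 0.814% (0.265 to 1.89). The median log2 ratio of the list was -0.23 in E cells and 0.24 in T cells. The summed level was 2327 CPM in EDG9.5 and 2921 CPM in EDG7.5 for E cells, and 472 and 317 CPM for T cells. In Reactivated and E5.5, 47.9% and 44.8% of N cells passed the same limit. The difference between lineages has 1 library per stage and was not tested.

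S phase genes, which copy the DNA, differed less. Of 25 measured members 22 were lower in EDG9.5, against 56.5% of all measured genes. None of the members lay past 1.5-fold either way, and their median log2 ratio was -0.19. Cdt1, which licenses origins, had 163 CPM in EDG9.5 and 189 CPM in EDG7.5. Mcm2, a subunit of the replicative helicase, had 92.8 CPM in EDG9.5 and 124 CPM in EDG7.5. The list of G1 cyclins, CDK inhibitors and FOXO targets had a median of 0.02, with Cdkn1b, a CDK inhibitor, at 275 CPM in EDG9.5 and 234 CPM in EDG7.5. Of this list Btg2, which slows the cell cycle, alone lay past 2-fold.

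Immediate early genes were higher in EDG9.5. They are transcribed within minutes of a growth factor or stress signal, and enzymatic dissociation of tissue is known to raise them. Of 21 measured members of 26, 18 had a ratio above 0, 7 lay past 1.5-fold higher and 2 past 2-fold higher, with a median log2 ratio of 0.46. Over all measured genes 43.5% had a ratio above 0, 1.2% lay past 1.5-fold higher and 0.211% past 2-fold higher. The summed level of the list was 6233 CPM (6153 to 6313) in EDG9.5 and 4467 CPM (4395 to 4540) in EDG7.5. In Reactivated and E5.5 N cells it was 2124 and 1913 CPM. The EDG9.5 and EDG7.5 cells therefore both lay above those of the other libraries.

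Egr1, a zinc finger factor downstream of ERK, had 1468 CPM in EDG9.5 and 809 CPM in EDG7.5, a ratio of 1.81 (1.73 to 1.90). Fos, a subunit of AP-1, had 575 CPM in EDG9.5 and 294 CPM in EDG7.5, a ratio of 1.95 (1.81 to 2.11). Egr2 had 77.7 CPM in EDG9.5 and 29.3 CPM in EDG7.5, a ratio of 2.65 (2.10 to 3.37). Their intervals lie above 1, but these genes were named partly for their large ratios. Jun, the partner of Fos, had 129 CPM in EDG9.5 and 71.7 CPM in EDG7.5. Zfp36, which speeds the decay of unstable mRNAs, had 204 CPM in EDG9.5 and 113 CPM in EDG7.5. Other members hardly differed: Klf4 had 919 CPM in EDG9.5 and 827 CPM in EDG7.5, and Fosb, at 54.9 and 60.5 CPM, was lower.

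The difference was spread over the cells. Of 1000 UMIs the median N cell had 6 on the immediate early list in EDG9.5 and 4 in EDG7.5, with 2 to 13 and 1 to 9 between the 10th and the 90th percentile. After thinning, Egr1 was found in 64.3% of N cells in EDG9.5 and 44.0% in EDG7.5. In E cells the Egr1 share was 42.9% in EDG9.5 and 32.2% in EDG7.5, and in T cells 28.4% and 30.6%. In E and T cells the median log2 ratio of these genes was 0.26 and 0.12, so a ratio above 0 was not confined to N cells.

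The promoter of Btg2 is shown because it holds TGACGTCA, the full site for CREB and ATF factors, in capitals. It lies on the minus strand at chr1:134079106-134079405, and the window is made as above from RefSeq.
Btg2: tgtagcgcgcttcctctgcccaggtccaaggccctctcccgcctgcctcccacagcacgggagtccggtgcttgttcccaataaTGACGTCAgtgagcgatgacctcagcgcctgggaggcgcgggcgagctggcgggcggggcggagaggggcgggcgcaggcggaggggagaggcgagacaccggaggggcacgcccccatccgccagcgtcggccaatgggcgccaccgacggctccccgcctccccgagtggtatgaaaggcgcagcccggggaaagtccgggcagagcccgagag

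TGACGTCA reads the same on both strands. It was found in 3 of the 27 windows of 18 immediate early genes (11.1%) and in 1.79% of all windows. The CArG box, the site of serum response factor, was found in 5 windows of 2 of these genes (18.5% of the windows) and in 1.63% of all windows. Btg2 had 219 CPM in EDG9.5 and 103 CPM in EDG7.5, a ratio of 2.12 (1.87 to 2.41).

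Some of the genes with the largest ratios at high level belong to neither of these groups. The rule for naming took the 14 highest and the 14 lowest log2 ratios among 2093 genes with at least 100 CPM in 1 library. Of the 14 highest, 6 are on the immediate early list (Btg2, Fos, Egr1, Zfp36, Jun, Klf2). Of the 14 lowest, 7 are on the G2 and M phase list (Cenpf, Birc5, Ccna2, Mki67, Ccnb1, Cenpa, Top2a).

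Hist1h1c, which encodes the linker histone H1.2, was at the head of the higher genes. It had 459.6 CPM in EDG9.5 and 203 CPM in EDG7.5, a ratio of 2.26 (2.07 to 2.48), and after thinning it was found in 33.8% of N cells in EDG9.5 and 17.3% in EDG7.5. Its log2 ratio was 1.14 in N cells, 0.65 in E cells and 0.01 in T cells. Phlda1, which is induced by growth factor signals, had 255 CPM in EDG9.5 and 126 CPM in EDG7.5. Gabarap, an ATG8 protein of autophagosomes, had 726 CPM in EDG9.5 and 437 CPM in EDG7.5. The lysosome and autophagy list as a whole did not stand with Gabarap: its median was 0.00 over 36 measured members, and Ctsl, a cathepsin, had 2404 CPM in EDG9.5 and 2524 CPM in EDG7.5.

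Further genes of the higher 14 act at the cell surface or on the cytoskeleton. Plaur, the urokinase receptor, had 108 CPM in EDG9.5 and 59.3 CPM in EDG7.5. Cyr61, a secreted matricellular protein, had 172 CPM in EDG9.5 and 102 CPM in EDG7.5. Tmsb4x, which binds actin monomers, had 316 CPM in EDG9.5 and 194 CPM in EDG7.5. Its level in T cells was far higher, 6390 CPM in EDG9.5 and 7721 CPM in EDG7.5, with a log2 ratio of -0.27. Whether RNA of T cells adds to the N counts was not tested. Counts of Tmsb4x varied more between cells than those of most genes, with up to 62 UMIs in 1 cell of EDG9.5 and 47 in 1 cell of EDG7.5.

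Pgc, the gene of the aspartic protease precursor progastricsin, had the lowest log2 ratio of the genes with at least 100 CPM. It had 460.4 CPM in EDG9.5 and 943 CPM in EDG7.5, a ratio of 0.488 (0.460 to 0.518). After thinning it was found in 30.6% of N cells in EDG9.5 and 49.5% in EDG7.5, against 11.3% and 12.2% of E cells and 1.33% and 4.23% of T cells. Nt5e, the surface enzyme that makes adenosine from AMP, had 52.5 CPM in EDG9.5 and 109 CPM in EDG7.5. Upp1, a uridine phosphorylase, had 114 CPM in EDG9.5 and 202 CPM in EDG7.5. In E cells Nt5e had 47.3 CPM in EDG9.5 and 46.3 CPM in EDG7.5, and Upp1 had 162 and 161 CPM. In T cells both genes were under 2 CPM in either library, too low to compare. Pigp, which acts in the making of GPI anchors, had 229 CPM in EDG9.5 and 384 CPM in EDG7.5 and was lower in E and T cells as well, with log2 ratios of -0.55 and -1.07. Arl6ip1, which shapes the endoplasmic reticulum, had 506 CPM in EDG9.5 and 828 CPM in EDG7.5. Without the rich cells its log2 ratio was -0.15, against -0.70 with them. The pseudogene Fabp3-ps1 and Heatr3 complete the lower 14, with 70.0 and 66.8 CPM in EDG9.5 and 132 and 118 CPM in EDG7.5; the Fabp3-ps1 value is uncertain, since the pseudogene can share reads with Fabp3.

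**Figure D3:**
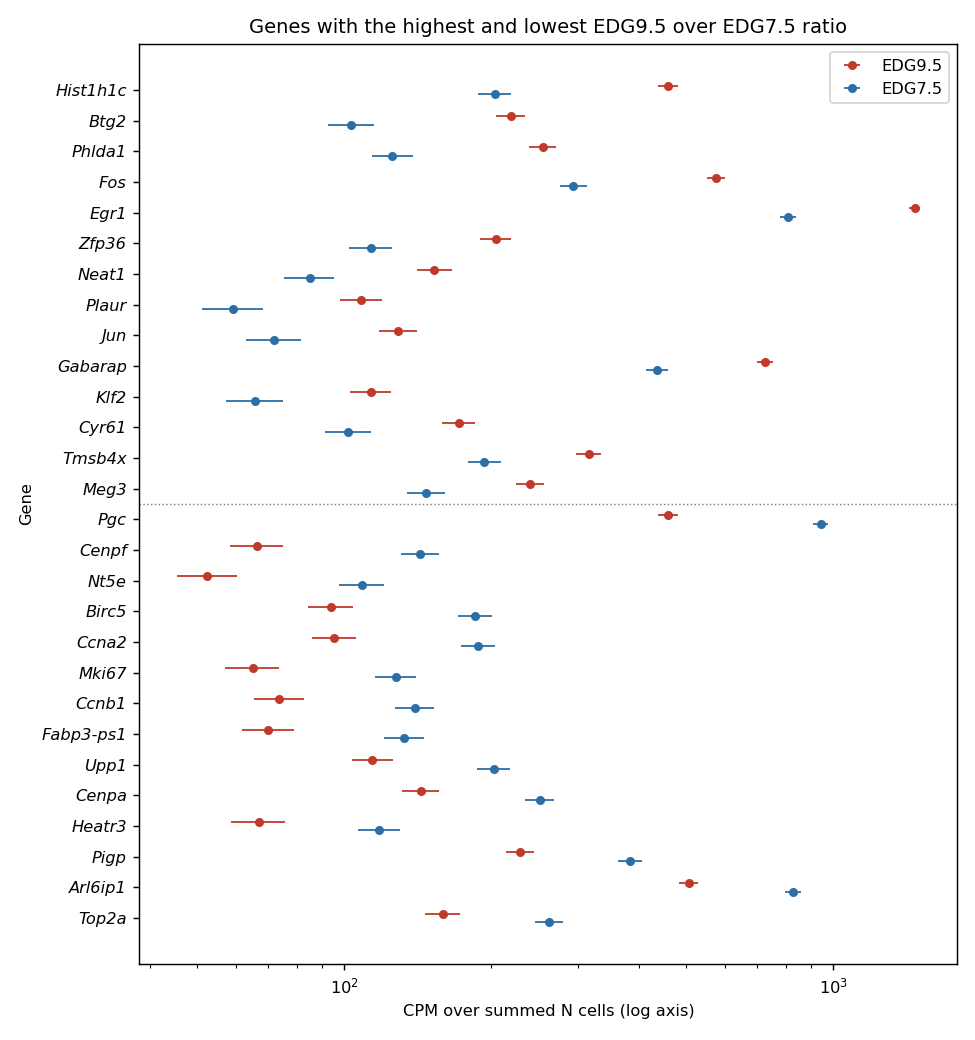
Level (CPM over summed N cells, log axis) of the 14 genes with the highest and, under the dotted line, the 14 with the lowest log2 ratio, in EDG9.5 (red, upper point) and EDG7.5 (blue, lower point), with exact 95% Poisson intervals of 1 library each. The genes run from Hist1h1c at 459.6 against 203 CPM to Top2a at 159 against 262 CPM. They were picked for extreme ratios, so intervals that stand apart follow from the choice and are no separate support.

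Ribosomal protein genes took a larger share of the RNA in EDG9.5. Of 81 measured members of 83, 79 had a ratio above 0, against 43.5% of all measured genes. Past 1.5-fold higher lay 15 members, against 1.2% of all measured genes, and none lay past 2-fold. The median log2 ratio of the list was 0.38. Its sum was 127795 CPM in EDG9.5 and 94448 CPM in EDG7.5. Rps20 had 6090 CPM in EDG9.5 and 3969 CPM in EDG7.5, and Rps6, the subunit phosphorylated downstream of mTOR, had 615 CPM in EDG9.5 and 350.5 CPM in EDG7.5. Ribosomal protein genes have many pseudogenes, so single members are uncertain. The elongation factors Eef1a1 and Eef2 had 2625 and 1493 CPM in EDG9.5, against 1930 and 1124 CPM in EDG7.5. Genes that build ribosomes mostly lay on the other side: 22 of 26 were lower in EDG9.5, against 56.5% of all measured genes, with a median of -0.17. Npm1, a nucleolar chaperone, was higher, with 3357 CPM in EDG9.5 and 2799 CPM in EDG7.5. E and T cells also had higher ribosomal protein shares in EDG9.5, with median log2 ratios of 0.24 and 0.55.

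Mitochondrially encoded genes took a smaller share. All 8 measured members of 12 were lower in EDG9.5, against 56.5% of all measured genes, none past 1.5-fold, with a median log2 ratio of -0.40. They summed to 69935 CPM in EDG9.5 and 88879 CPM in EDG7.5. The apocytochrome mt-Cytb had 12806 CPM in EDG9.5 and 17702 CPM in EDG7.5, while mt-Co1, a subunit of complex IV, hardly differed, with 14706 CPM in EDG9.5 and 14991 CPM in EDG7.5. With cells under 10% mitochondrial UMIs alone the median was -0.22, but this filter cuts on the quantity compared, so the smaller difference is built in. The medians were -0.31 in E cells and -0.30 in T cells. Nuclear genes of oxidative phosphorylation had a median of -0.09 over 42 members and none past 1.5-fold, with Atp5a1, of the ATP synthase, at 999.8 CPM in EDG9.5 and 1154 CPM in EDG7.5. The median share of mitochondrial UMIs per N cell was 7.66% in EDG9.5 and 9.76% in EDG7.5, and its part in the other differences was not tested.

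**Figure D4:**
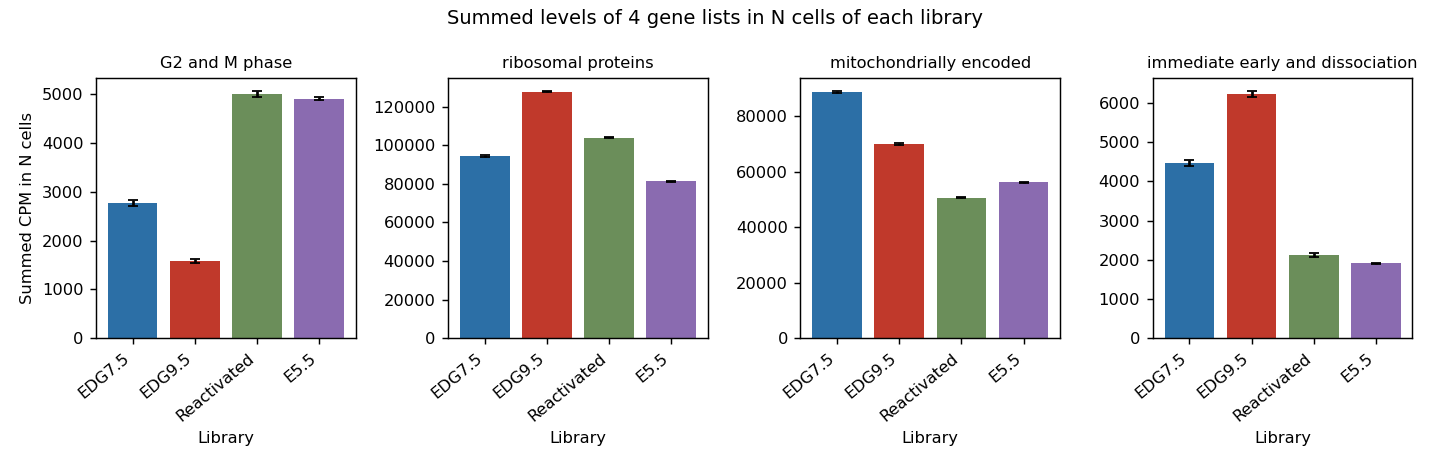
Summed level (CPM over N cells, from 0, a scale per panel) of 4 gene lists in the 4 libraries, with the EDG7.5 bar first and then EDG9.5, Reactivated and lastly E5.5, with exact 95% Poisson intervals. EDG9.5 has the lowest G2 and M phase bar (1590 CPM) and the highest ribosomal protein (127795 CPM) and immediate early (6233 CPM) bars.

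Nuclear long noncoding RNAs and snoRNA host genes were mostly higher in EDG9.5, with 9 of 13 measured members above 0, 4 past 1.5-fold and none past 2-fold, and a median log2 ratio of 0.38. Of all measured genes 43.5% lay above 0 and 1.2% past 1.5-fold higher. The lowest member of the list had a log2 ratio of -0.56. The list median was 0.61 in E cells and -0.01 in T cells, so it was not above 0 in every lineage. The levels that follow are of N cells. Malat1, which is kept in nuclear speckles, had 2005 CPM in EDG9.5 and 1349 CPM in EDG7.5. Neat1, the scaffold of paraspeckles, had 153 CPM in EDG9.5 and 85.0 CPM in EDG7.5. Meg3, an imprinted RNA, had 240.4 CPM in EDG9.5 and 147 CPM in EDG7.5. The same direction held for Malat1 in E cells, with a log2 ratio of 1.13, and not in T cells, with 0.01.

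Xist, the RNA that coats the inactive X chromosome of female cells, had 752 CPM in EDG9.5 and 485 CPM in EDG7.5. It was found in 52.0% of N cells in EDG9.5 and 38.3% in EDG7.5, and after thinning in 37.1% and 27.2%. In E cells Xist was found in 5.91% and 4.48% of cells, so the N cell shares are above that level. The Y-linked genes Ddx3y, Eif2s3y, Uty and Kdm5d were found together in 29.8% of N cells in EDG9.5 and 45.4% in EDG7.5, and in 12.6% and 16.2% after thinning. Among N cells with one kind and not the other, 64.3% (60.6 to 67.8) carried Xist in EDG9.5 and 45.5% (40.9 to 50.1) in EDG7.5. After thinning to equal depth these shares were 75.1% (70.8 to 79.1) in EDG9.5 and 62.9% (56.6 to 68.9) in EDG7.5. T cells moved the same way, with 71.3% (67.6 to 74.8) in EDG9.5 and 53.9% (48.9 to 58.9) in EDG7.5 over all UMIs, and 77.0% (71.6 to 81.7) and 62.2% (54.1 to 69.8) after thinning. The N and T cells of the libraries thus differed in these markers of sex. In E cells the Y-linked genes were found in 34.3% of cells in EDG9.5 and 41.1% in EDG7.5. After thinning the E cell share was 15.9% in both libraries, so a difference of the whole pools is not shown. Within Xist cells the G2 and M phase median was -0.50 and within Y-linked cells it was -1.12, while the immediate early median was 0.32 and 0.31 and the ribosomal protein median 0.37 and 0.40.

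Genes of endoderm identity differed little. The list of endoderm transcription factors and Pdgfra had a median log2 ratio of -0.02 over 12 measured members of 18, with none past 1.5-fold. Foxq1, a forkhead factor, had 1152 CPM in EDG9.5 and 1356 CPM in EDG7.5, and Sall4, a zinc finger factor, had 459.4 and 547 CPM in the same order. Klf6, also an immediate early gene, was higher, with 438 CPM in EDG9.5 and 303 CPM in EDG7.5.

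Genes of the basement membrane were slightly lower in EDG9.5: 15 of 20 measured members lay below 0 and none past 1.5-fold, with a median of -0.10. Of all measured genes 56.5% lay below 0, with a median of -0.04. The list had a median of -0.11 in E cells and in T cells, so the shift was not confined to N cells. Lamc1, a laminin chain, had 1488 CPM in EDG9.5 and 2030 CPM in EDG7.5. Hspg2, the core of perlecan, had 197 CPM in EDG9.5 and 297 CPM in EDG7.5. Serpinh1, the collagen chaperone of the endoplasmic reticulum, was near equal, with 1400 CPM in EDG9.5 and 1442 CPM in EDG7.5. The parietal endoderm list had a median of 0.24 over 12 measured members, with Lgmn, an endopeptidase, at 131 CPM in EDG9.5 and 94.7 CPM in EDG7.5, but within Xist cells the median was -0.07. That list is not specific to N cells. It summed to 1376 CPM in EDG9.5 and 1245 CPM in EDG7.5 in N cells, against 4518 and 4608 CPM in T cells.

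Visceral endoderm genes were mixed. The endocytosis list had a median of 0.05 over 15 members: Lrpap1, the chaperone of LRP receptors, had 653 CPM in EDG9.5 and 902 CPM in EDG7.5, whereas Myo6, a motor of endocytosis, had 174 and 107 CPM. This list summed to 3756 CPM in EDG9.5 and 3846 CPM in EDG7.5 in N cells, and to 4376 and 4333 CPM in T cells. The list of apolipoproteins and secreted proteins had a median of 0.26 over 8 measured members of 22, but of -0.24 with thinned cells and -0.03 within Xist cells. In E cells this list summed to 2902 CPM in EDG9.5 and 2840 CPM in EDG7.5. Its summed level in N cells was 1525 CPM (1486 to 1565) in EDG9.5 and 1574 CPM (1532 to 1618) in EDG7.5, so no direction holds for the list. Apoe had 692 CPM in EDG9.5 and 861 CPM in EDG7.5, and Spink3, a secreted trypsin inhibitor, had 66.0 and 9.07 CPM, the largest ratio among the 9501 genes by log2.

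The Spink3 transcripts lay in few cells, 47 of 905 in EDG9.5 (5.19%) and 14 of 588 in EDG7.5 (2.38%), and after thinning in 2.54% and 0.510%, while none of the E and T cells had a Spink3 UMI after thinning. That count of 0 allows up to 0.507% of E and 0.308% of T cells with such a UMI in EDG9.5, and 0.611% and 0.489% in EDG7.5, which limits detection at this depth and not the cells that express the gene. Of the 47 cells in EDG9.5, 45 had a UMI of Cubn, 40 of H2-K1, an MHC class I gene, 37 of Habp2, a serine protease, and 35 of Lgals9, a galectin, against 10.0%, 6.41%, 4.20% and 2.91% of the other N cells; Cubn is also a gene of the rule. Of the 14 cells in EDG7.5, 11 had Cubn, 4 H2-K1, 5 Habp2 and 4 Lgals9, against 17.1%, 11.7%, 5.92% and 2.96% of the other N cells. The cells with Spink3 were deeper, with a median of 8740 UMIs in EDG9.5 and 9968 in EDG7.5, against 3454 and 5024 in the other N cells; this set of genes was looked at after the values were seen.

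Some other genes past 2-fold higher also lay in the Spink3 cells of EDG9.5. Spink3 was found in 25 of the 26 cells with Lgals2 and 24 of the 32 with Gpc3. It was in 24 of the 54 cells with H19, 19 of the 31 with Ifitm3 and 17 of the 45 with Slco2a1. H19 itself was found in fewer N cells of EDG9.5, 5.97% against 9.52% in EDG7.5. In T cells H19 had 5382 CPM in EDG9.5 and 5384 CPM in EDG7.5, and in E cells 11.8 and 113 CPM. In EDG9.5 the highest N cell held 42 of 287 UMIs of H19, 36 of 156 of Gpc3, 26 of 121 of Ifitm3 and 22 of 74 of Zg16. Of the 14 Spink3 cells in EDG7.5, 1 had Lgals2, 4 Gpc3, 3 H19, 1 Ifitm3 and 1 Slco2a1. Prlr, Pi16, Timp3 and Zg16, also past 2-fold higher, did not follow Spink3 in EDG9.5. Prlr, the prolactin receptor, had 93.8 CPM in EDG9.5 and 38.1 CPM in EDG7.5, and 3 of the 47 cells held it, against 24.2% of the other cells of EDG9.5. Pi16, Timp3 and Zg16 were in 3, 3 and 1 of the 47 cells. Of the 8 genes past 2-fold lower, Cd74, H2-Ab1 and Dcn rest mostly on 1 cell of EDG7.5 each, which held 49 of 50, 49 of 59 and 45 of 48 UMIs of that library. Egfl7, a secreted protein known from blood vessels, was spread over cells, with 23.9 CPM in EDG9.5 and 69.9 CPM in EDG7.5, and it was found in 79 and 177 cells.

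Signalling lists lay near the median of all genes. FGF receptors and ERK feedback genes had a median of -0.03, with Phlda1 higher and Fgfr1, at 14.8 CPM in EDG9.5 and 33.9 CPM in EDG7.5, lower; Spry2, a feedback inhibitor, had 553 and 426 CPM. The PDGF, LIF and STAT3 list had a median of -0.03, BMP and ID genes -0.09, WNT genes -0.10 and YAP and TEAD targets -0.06. Lefty1, an inhibitor of Nodal, had 86.7 CPM in EDG9.5 and 38.7 CPM in EDG7.5, while the Nodal list had a median of -0.06. No member of these lists lay past 2-fold.

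Most metabolic lists had medians near that of all genes, and the polyamine list was lower. Glycolysis genes had a median of 0.11, with Hk2, a hexokinase, at 341 CPM in EDG9.5 and 234 CPM in EDG7.5, and Gapdh at 553 and 564 CPM. TCA cycle genes had a median of -0.13 and fatty acid oxidation genes -0.06, with Cpt1a, which admits fatty acids to mitochondria, at 516 CPM in EDG9.5 and 448.5 CPM in EDG7.5. Polyamine genes had a median of -0.23, and 2 of 11 measured members, Odc1 and Amd2, lay past 1.5-fold lower, against 1.28% of all measured genes. Odc1, the first enzyme of the pathway, had 327 CPM in EDG9.5 and 501 CPM in EDG7.5. Genes of amino acid and integrated stress responses had a median of -0.16: Asns, asparagine synthetase, had 887 and 1033 CPM, while Ddit3 had 79.8 and 49.0 CPM. The proteasome list, with 32 members, had a median of -0.07 and the list of chaperones of the endoplasmic reticulum 0.06, none of them past 1.5-fold.

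**Figure D5:**
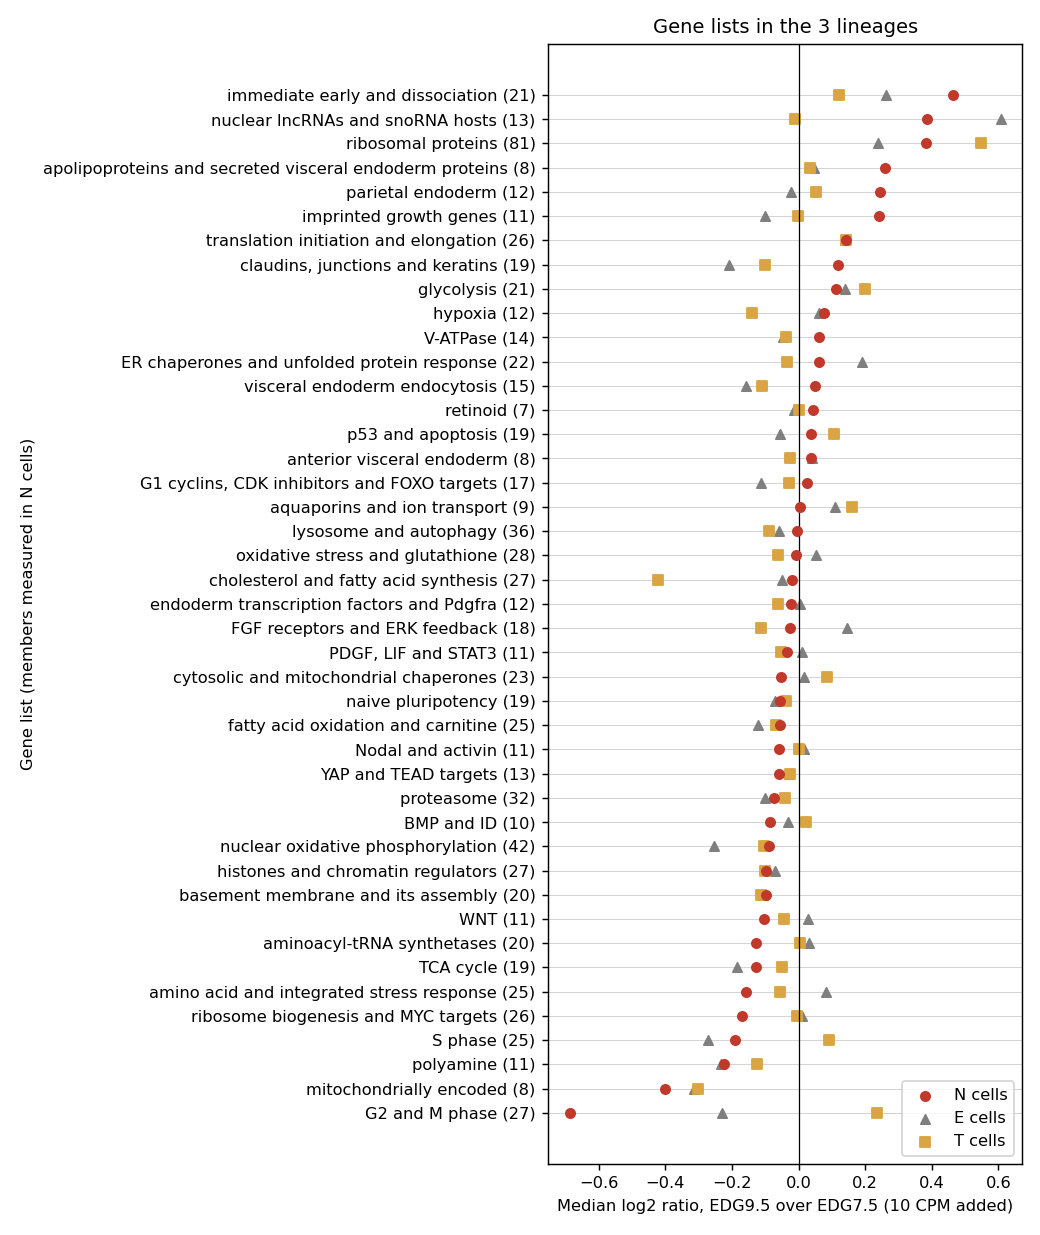
Median log2 ratio of EDG9.5 over EDG7.5 (10 CPM added) of 43 gene lists in N cells (circles), E cells (triangles) and T cells (squares), ordered by the N value, with the number of members measured in N cells in brackets. G2 and M phase genes have the lowest N median (-0.69) and immediate early genes the highest (0.46).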

How the data were processed

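Single-cell RNA of EDG9.5, EDG7.5, Reactivated and E5.5 embryos was analysed, 1 library each. The deposited values are whole UMI counts per gene and cell barcode, made by the authors with tools that include featureCounts 1.6.4 of Subread, STAR 2.7.1a and UMI-tools 1.0.1, on mm10, per the submitters' processing notes. For annotation, strand setting and barcode choice, what was used is not given in the sources used here, so overlapping and antisense genes cannot be told apart. The files list counts above 0 only and hold 25437 gene names.

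Cells were assigned by the marker rule with at least 1000 UMIs. UMIs were summed over the N cells of a library and divided by their total (3772684 in EDG9.5, 3306364 in EDG7.5), giving CPM with exact Poisson intervals. Ratios have exact conditional binomial intervals and shares exact Clopper-Pearson intervals, at 95%, covering counting error only. Log2 ratios add 10 CPM to both sides, and a gene needed 50 UMIs in the 2 sums. No test was made, since cells are not replicates and a group has 1 library. For shares of cells each cell was thinned to 1000 UMIs at random.

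The members and the 43 gene lists were chosen with earlier results of these data known. The genes named are the 14 highest and 14 lowest log2 ratios among genes with at least 100 CPM in 1 library, without genes of the rule, ribosomal protein, mitochondrially encoded, haemoglobin and predicted genes, and in each list up to 4 members of highest mean CPM and the 2 of largest absolute log2 ratio. Others, such as Prlr, Pi16, Timp3, Zg16, Habp2, Lgals9, H2-K1, H2-Ab1, Egfl7, Fosb, Bub1b and Racgap1, were named after their values were seen. The 1.5-fold limit, the limit of 5 G2 and M phase UMIs, the Xist and Y-linked split, the cells under 2% mitochondrial UMIs and the Spink3 cells were also chosen after the values were seen. Scrublet in scanpy 1.11.5 called 8 cells of EDG9.5 and 14 of EDG7.5 doublets; they were kept, and left out as an alternative. The alternatives were TMM factors from edgeR 4.0.16 and R 4.3.3, totals that leave out ribosomal protein and mitochondrial genes, means over cells, thinned cells, 1 or 50 CPM added, other UMI minimums and other cell filters. Promoters came from a RefSeq table of GRCm38.p6. Python 3.11.15, numpy 2.4.6, scipy 1.17.1 and pandas 2.3.3 were used, and the steps were tested on simulated data.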

Additional observations from a re-analysis of the deposited data

Results flagged for a closer look

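These results stand out because the T cells of the same libraries went the other way. The difference between lineages was not tested, with 1 library per stage. The median log2 ratio of G2 and M phase genes was -0.69 in N cells and 0.24 in T cells. Birc5 was at -0.91 in N cells and 0.96 in T cells, Ccna2 at -0.91 and 0.59, and Mki67 at -0.87 and 0.65. The T cell levels of these genes were low. Birc5 had 34.3 CPM in EDG9.5 and 12.8 CPM in EDG7.5, Ccna2 24.8 and 13.1 CPM, and Mki67 10.3 and 2.98 CPM. Only 12 T cells of EDG9.5 and 5 of EDG7.5 were rich in G2 and M phase UMIs, so these T values rest on few cells. Phlda1 was at 0.97 in N cells and -0.59 in T cells, and Plaur at 0.77 and -0.64.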

How the results depend on the processing

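No paired analysis was possible because each stage has 1 library and the labels give no replicate numbers; for the same reason no replicate could be left out. The N share was 38.8% in EDG9.5 and 37.4% in EDG7.5 with the rule applied to thinned cells, and 37.7% and 29.7% with cells under 10% mitochondrial UMIs. Genes past 2-fold higher numbered 63 with 1 CPM added, 1 with 50 CPM added, 42 with thinned cells, 12 with means over cells and 33 within Y-linked cells, against 20. Genes past 2-fold lower numbered 62 with 1 CPM added, 0 with 50 CPM added, 46 with thinned cells, 40 within Y-linked cells, 25 with cells under 10% mitochondrial UMIs, 5 with at least 200 UMIs and 5 without G2 and M rich cells, against 8. No test stands behind these counts: adding 50 CPM pulls ratios towards 0 by its construction, and adding 1 CPM in place of 10 widens them likewise. With thinned cells the minimum of 50 UMIs was still taken on the unthinned sums, so those ratios rest on fewer UMIs. The cause of the remaining shifts was not tested.

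The G2 and M phase median, -0.69, was -0.42 with 50 CPM added, -0.50 within Xist cells, -1.12 within Y-linked cells, -0.97 with cells under 10% mitochondrial UMIs and 0.069 without rich cells. The S phase median was -0.12 within Xist cells and -0.35 within Y-linked cells. The share of rich N cells was 11.3% in EDG9.5 and 17.7% in EDG7.5 with a limit of 3, 4.09% and 12.2% with a limit of 8, and 6.94% and 18.4% with cells under 10% mitochondrial UMIs. Without rich cells Cenpf turned to 0.26, and Ccna2 (0.08), Mki67 (0.33) and Top2a (0.61) were above 0 too. Tmsb4x was 1.36 within Y-linked cells, against 0.68. Over 22 settings 86 of 616 values of the 28 named genes and 25 of 946 list medians moved by more than their counting interval or spread. The immediate early median ran from 0.22 to 0.53, the ribosomal protein median from 0.36 to 0.46, the mitochondrially encoded median from -0.45 to -0.22 and that of nuclear noncoding RNAs from 0.23 to 0.48. The value of -0.22 came from the filter at 10% mitochondrial UMIs, which cuts on the quantity compared. Depth limits genes under about 10 CPM, whose ratios the added CPM pulls to 0.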

Other observations

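Some N cells had very little mitochondrially encoded RNA. Under 2% of UMIs, a limit chosen after the values were seen, lay 48 N cells of EDG9.5, or 5.30% (3.94 to 6.97), and 38 of EDG7.5, or 6.46% (4.61 to 8.76). Their median depth was 2029 UMIs in EDG9.5 and 2451 in EDG7.5, against 3712 and 5283.5 in the other N cells. Xist, which is kept in the nucleus, had 45.9 CPM in these cells of EDG9.5 and 0 UMIs in those of EDG7.5, against 773 and 500.4 CPM in the other N cells. Malat1, also nuclear, had 927 CPM in EDG9.5 and 950.3 CPM in EDG7.5, against 2037 and 1361 CPM in the others. Both of these nuclear RNAs were thus low in the N cells with little mitochondrially encoded RNA. The endoderm set of the rule was low in them too, with 5776 CPM in EDG9.5 and 6733 CPM in EDG7.5, against 12428 and 12704 CPM in the others. G2 and M phase genes summed to 2296 CPM in EDG9.5 and 5621 CPM in EDG7.5, against 1569 and 2685 CPM in the others. Such cells were also found among E cells, with 59 (9.97%) in EDG9.5 and 27 (5.5%) in EDG7.5, and among T cells, with 5 and 2. In these E cells Malat1 had 2578 CPM in EDG9.5, against 2856 CPM in the other E cells, and 584 against 1308 CPM in EDG7.5.

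The counts of a few genes varied between N cells far more than the rest. With each cell thinned to 1000 UMIs, the ratio of variance to mean over cells had a median of 1.05 in both libraries over 1785 genes. The metallothionein Mt2 had a ratio of 4.59 in EDG9.5 and 2.80 in EDG7.5, and Mt1 one of 2.80 and 2.75, while their mean levels were near equal in the libraries. Car4, a carbonic anhydrase of the cell surface, had a ratio of 2.42 in EDG9.5 and 2.44 in EDG7.5, and Ly6a, a surface antigen, one of 2.08 and 2.11. Mt1, Car4 and Ly6a thus had like ratios in the libraries, and Mt2 a higher one in EDG9.5. Tmsb4x and Arl6ip1 went the other way, with ratios of 1.5 and 1.56 in EDG9.5 and 4.61 and 3.27 in EDG7.5.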
